A study of Mus musculus with 25 samples.

Results

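A group of 7 immune surface genes was followed after white matter stroke, in captured mouse brain material that the labels call oligodendrocyte precursor cells. They are 4632428N05Rik (the gene of VISTA, listed by RefSeq as Vsir), Havcr2 (TIM-3), Cd274 (PD-L1), Cd86, Cd84, Ptprc (CD45) and Cd53. These 7 genes are 7 of the 23351 genes in the expression table, and they were picked by symbol with the results of this table already in view. Their group differences are therefore given as a description, with no p-value. All 7 passed the filter on low values, an RPKM (reads scaled by transcript length and by the reads of the library) of at least 1 in at least 7 libraries, which kept 4319 genes. For 6 of the members, all but Ptprc, fewer than 7 control libraries reached that level, so they passed only through libraries taken after stroke.

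The libraries were made from cells that the labels call oligodendrocyte precursor cells, the dividing glial cells that give rise to myelin-forming oligodendrocytes, cut from mouse brain by laser capture. There were 10 control libraries, 8 from Day 5 after white matter stroke and 7 from Day 15. Beyond the stroke itself the labels name no allele, agent, strain or age of the mice, nor how the controls were treated or the captured areas chosen. The labels do not tie libraries to animals, so libraries may share an animal, and every p-value here would then be too small.

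Immune checkpoints are pairs of surface proteins that set how strongly an immune cell answers a stimulus. PD-L1 on one cell engages PD-1 on a T cell and dampens it, whereas CD86 engages CD28 and stimulates T cells, or CTLA-4 and restrains them. In the brain, microglia and incoming macrophages are the usual carriers of CD45, CD53, CD84, CD86, TIM-3 and VISTA, and CD45 is commonly used to separate blood-derived and resident immune cells from neural cells.

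The sequences just upstream of 4 of the members are shown because they carry short letter strings of the kind bound by ETS-family factors, the family of the myeloid factor PU.1. Each is the 250 bases before the start site, read 5′ to 3′ on the strand of the gene, from RefSeq on build GRCm38.p6. The expression values were made on build mm9, and no coordinate was carried between the builds. Capitals mark every match, on either strand, to GAGGAA or to GGAAGT. The 4 windows lie at chr10:60346601-60346850 on the plus strand for 4632428N05Rik, chr11:46454681-46454930 on the plus strand for Havcr2, chr1:138175306-138175555 on the minus strand for the first of 2 Ptprc start sites, and chr3:106790150-106790399 on the minus strand for Cd53.
4632428N05Rik: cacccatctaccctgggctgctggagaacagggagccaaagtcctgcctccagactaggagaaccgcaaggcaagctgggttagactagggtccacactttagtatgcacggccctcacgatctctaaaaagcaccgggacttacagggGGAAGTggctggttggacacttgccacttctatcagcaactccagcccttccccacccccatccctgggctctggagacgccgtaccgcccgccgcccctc
Havcr2: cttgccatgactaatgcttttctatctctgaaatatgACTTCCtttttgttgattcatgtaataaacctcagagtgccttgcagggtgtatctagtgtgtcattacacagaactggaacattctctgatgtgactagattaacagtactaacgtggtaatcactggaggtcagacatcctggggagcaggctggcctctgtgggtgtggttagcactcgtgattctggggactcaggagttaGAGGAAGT
Ptprc: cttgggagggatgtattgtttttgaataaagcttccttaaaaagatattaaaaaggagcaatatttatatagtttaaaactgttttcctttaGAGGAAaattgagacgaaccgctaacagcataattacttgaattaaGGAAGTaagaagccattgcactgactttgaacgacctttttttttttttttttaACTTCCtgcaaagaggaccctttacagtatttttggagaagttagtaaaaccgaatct
Cd53: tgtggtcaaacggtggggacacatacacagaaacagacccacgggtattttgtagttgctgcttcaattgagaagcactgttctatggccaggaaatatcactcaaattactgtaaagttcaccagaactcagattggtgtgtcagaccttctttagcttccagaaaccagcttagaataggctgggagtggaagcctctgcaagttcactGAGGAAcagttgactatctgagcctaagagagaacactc

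RefSeq promoters were matched for 6 of the 7 members, in 7 windows because Ptprc has 2 start sites. GAGGAA, the purine-rich core of PU.1 sites, was present in 3 of the 7 windows, at 39 bases upstream in Cd53, 8 in Havcr2 and 158 in the first Ptprc window. Among all 32851 RefSeq mouse promoter windows of the same length, 23.3% held it. GGAAGT, a core of ETS sites, was present in 4 of the 7 windows, those of 3 genes, and in 19.7% of all windows. The 2 Ptprc windows overlap, and the match 58 bases upstream of the first start site is the one 237 bases upstream of the second. In Havcr2 the GAGGAA match overlaps a GGAAGT match that begins 6 bases upstream of the start. TATAAA, the TATA box core, was in 1 of the 7 windows, 187 bases upstream in the first Ptprc window on the opposite strand and not in capitals, and in 12.4% of all. The core of the interferon-stimulated response element, GAAA repeated after a gap of 2 bases (2.98% of all windows), and the gamma-activated core TTCNNNGAA (7.02%) matched no member window. The windows of Cd84 and Cd274 held none of the 5 strings. These matches describe letters in the windows and are not evidence of binding.

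The libraries differed widely in what they detected. The number of genes at an RPKM of at least 1 ran from 1306 to 4320 in controls, from 2353 to 6592 at Day 5 and from 1749 to 5266 at Day 15. Read depth is unknown, since the table holds no counts. In Control replicate 5 and Day 5 replicate 10, over 50% of all RPKM belonged to Rn45s, the precursor of ribosomal RNA. Over all 4319 genes tested, the median log2 difference from Control was 0.61 at Day 5 and 0.17 at Day 15, so each member's difference is read beside those values. The Day 5 median was 0.10 with upper-quartile scaling, 0.16 after scaling to a common sum without Rn45s and -0.02 with quantile normalization. These 3 scalings are named with each member. In captured tissue, fewer cells of a type and less RNA per cell cannot be told apart.

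More of the 7 genes were detected together after stroke. The genes were picked with these results in view, and 6 of them passed the filter at this same level only through stroke libraries. Lower counts in controls were therefore partly built in, and the counts are a description. A median of 2 members reached an RPKM of 1 in a control library, with a range of 0 to 5, against a median of 6 at Day 5 (range 4 to 7) and 7 at Day 15 (range 5 to 7). All 7 were at that level in 0 control libraries, 2 Day 5 libraries and 4 Day 15 libraries. The number of all genes at that level, given above, reached its highest value in a Day 5 library. The highest member count was 7 at both times, and its median was higher at Day 15. A highest value and a median are unlike measures, so no contrast is drawn between them. The part of detection over all genes in the member counts was not tested.

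**Figure D1:**
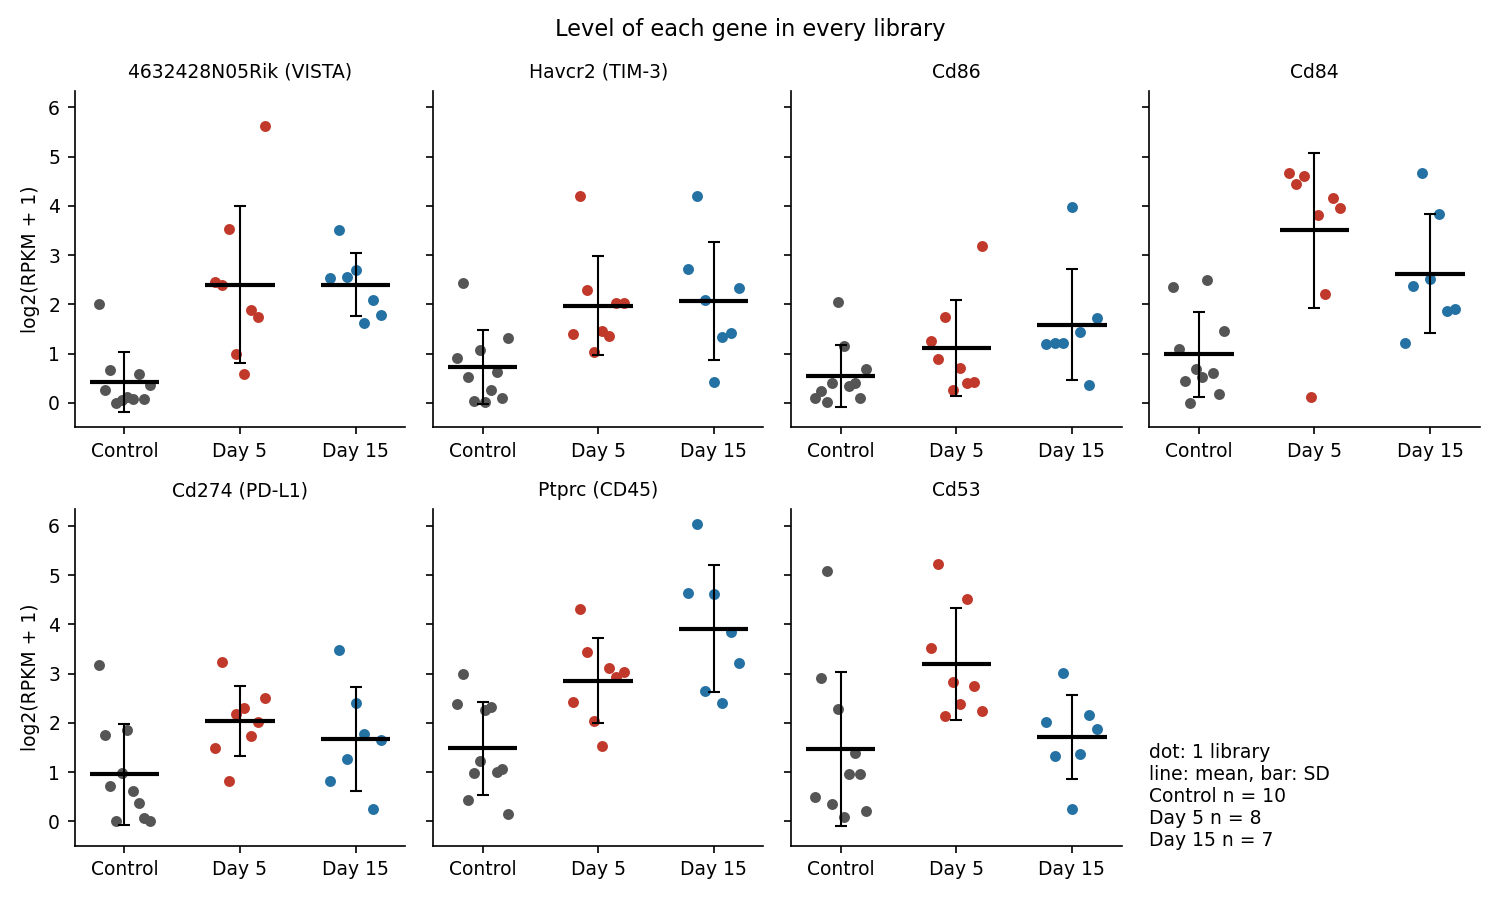
Level of each of the 7 members on the log2(RPKM + 1) scale, with a dot for each library, a line at the group mean and a bar of 1 SD (Control n = 10, Day 5 n = 8, Day 15 n = 7). Control dots lie mostly near the floor, with single high controls such as Cd53 at 32.8 RPKM, and the highest dots are Ptprc at Day 15 (64.5 RPKM) and 4632428N05Rik at Day 5 (48.1 RPKM).

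The inhibitory receptor and ligand VISTA, encoded by 4632428N05Rik, belongs to the B7 family and is carried by myeloid cells. Its RPKM in controls ran from 0 to 3.02 with a median of 0.144. At Day 5 it ran from 0.493 to 48.1 with a median of 3.48, and at Day 15 from 2.09 to 10.4 with a median of 4.77. Control replicate 1, at 3.02, was the single control above an RPKM of 1, and all 7 Day 15 libraries lay above the other 9 controls. At Day 5, 7 of 8 libraries lay above those 9 controls and 4 of 8 above the highest one. The value of 48.1 came from Day 5 replicate 10, one of the Rn45s-rich libraries, and the Day 5 mean was 9.25 ± 16.0 (SD, n = 8) with it and 3.70 ± 3.41 without it.

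On the log2(RPKM + 1) scale the 4632428N05Rik difference from Control was 1.98 (SE 0.55) at Day 5 and 1.98 (SE 0.57) at Day 15. The Day 5 difference was between 1.32 and 1.51 under the 3 scalings, and the Day 15 difference between 1.70 and 1.81. Without Day 5 replicate 10 the Day 5 difference was 1.52. Vsir lies within Cdh23 on the opposite strand in GENCODE M21 on GRCm38, and their exons do not overlap there. Cdh23 itself had medians of 0.00869, 0.0437 and 0.486 RPKM in Control, Day 5 and Day 15, and 4632428N05Rik had the higher median in each group.

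Havcr2 encodes TIM-3, an inhibitory receptor of T cells that microglia and other myeloid cells also carry. Its RPKM ran from 0.0151 to 4.44 in controls (median 0.492), from 1.04 to 17.5 at Day 5 (median 2.40) and from 0.345 to 17.4 at Day 15 (median 3.29). All 8 Day 5 libraries were above 1, against 3 of 10 controls and 6 of 7 at Day 15. Control replicate 2 was the highest control, and 1 Day 5 library and 2 Day 15 libraries exceeded it, so the groups overlap. Replicate 3 was the highest library in both stroke groups. The difference from Control was 1.24 (SE 0.52) at Day 5 and 1.34 (SE 0.54) at Day 15. The scalings gave 0.65 to 0.82 at Day 5 and 1.14 to 1.20 at Day 15.

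Cd274 encodes PD-L1, the ligand of PD-1, whose transcription is known to respond to interferon gamma. Its RPKM ran from 0 to 7.99 in controls (median 0.589), from 0.771 to 8.40 at Day 5 (median 3.28) and from 0.197 to 10.2 at Day 15 (median 2.15). Control replicate 1 lay near the top of both stroke groups, and 1 library of each stroke group exceeded it. The difference from Control was 1.08 (SE 0.52) at Day 5 and 0.71 (SE 0.54) at Day 15. With the scalings it was 0.56 to 0.68 at Day 5 and 0.45 to 0.56 at Day 15. An antisense gene overlaps exons of Cd274 in GENCODE M21, and no source used here says whether counting used strand, so reads of the pair cannot be told apart.

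Cd86 encodes the B7 co-stimulatory ligand of CD28 and CTLA-4 on antigen-presenting cells, and it had the lowest median of the 7 at both times after stroke. Its RPKM ran from 0.0069 to 3.12 in controls (median 0.296), from 0.194 to 8.09 at Day 5 (median 0.748) and from 0.280 to 14.7 at Day 15 (median 1.33). At Day 15, 6 of 7 libraries reached 1, against 3 of 8 at Day 5 and 2 of 10 controls. The highest value of each stroke group, in Day 5 replicate 10 and Day 15 replicate 6, was the only one above the highest control, Control replicate 5. The difference from Control was 0.56 (SE 0.46) at Day 5, under the median of 0.61 for all genes tested, and 1.04 (SE 0.47) at Day 15. The scalings gave 0.04 to 0.26 at Day 5 and 0.83 to 0.94 at Day 15.

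Cd84 encodes a self-binding receptor of the SLAM family, found on many leukocytes and platelets. Its RPKM ran from 0.00444 to 4.63 in controls (median 0.568), from 0.0937 to 24.4 at Day 5 (median 15.8) and from 1.33 to 24.5 at Day 15 (median 4.22). At Day 5, 6 of 8 libraries exceeded the highest control, Control replicate 7, and Day 5 replicate 6 was the lowest, at 0.0937. At Day 15, 3 of 7 exceeded it. The Day 5 mean was 14.6 ± 8.89 (SD, n = 8) against 1.37 ± 1.66 in controls (SD, n = 10) and 7.62 ± 8.42 at Day 15 (SD, n = 7).

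Cd84 had the largest Day 5 difference of the 7 members, 2.52 (SE 0.63), and 1.64 (SE 0.65) at Day 15. The scalings left 1.83 to 1.96 at Day 5 and 1.36 to 1.48 at Day 15. With each library left out in turn, the Day 5 difference lay between 2.35 and 3.00, the upper value without Day 5 replicate 6.

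Ptprc encodes CD45, the receptor tyrosine phosphatase found on all nucleated blood-lineage cells, which removes an inhibitory phosphate from Src family kinases. Its RPKM ran from 0.113 to 6.93 in controls (median 1.23), from 1.89 to 19.0 at Day 5 (median 6.93) and from 4.28 to 64.5 at Day 15 (median 13.4). Control replicate 2 was the highest control, and 4 of 8 Day 5 libraries and 5 of 7 Day 15 libraries exceeded it. All 7 Day 15 libraries lay above the other 9 controls. The mean was 2.39 ± 2.23 in controls (SD, n = 10), 7.45 ± 5.32 at Day 5 (SD, n = 8) and 20.4 ± 21.0 at Day 15 (SD, n = 7), and Day 15 replicate 3 alone held the 64.5.

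Ptprc had the largest Day 15 difference of the 7, 2.43 (SE 0.63), against 1.37 (SE 0.61) at Day 5. The scalings gave 2.07 to 2.22 at Day 15 and 0.66 to 0.78 at Day 5. Without Day 15 replicate 3 the Day 15 difference was 2.08.

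Cd53 encodes a tetraspanin, a membrane organiser confined in the main to leukocytes. Its RPKM ran from 0.0693 to 32.8 in controls (median 0.952), from 3.38 to 36.7 at Day 5 (median 5.92) and from 0.189 to 7.06 at Day 15 (median 2.67). Control replicate 3 held the 32.8, which 1 of 8 Day 5 libraries and 0 of 7 Day 15 libraries exceeded. The control mean was 4.76 ± 10.1 (SD, n = 10), or 1.65 ± 2.17 without that library, against 11.5 ± 11.9 at Day 5 (SD, n = 8). The difference from Control was 1.73 (SE 0.63) at Day 5 and 0.24 (SE 0.65) at Day 15. The scalings gave 0.93 to 1.13 at Day 5. At Day 15 they gave 0.07, 0.08 and, with the common sum, -0.04, so the direction at Day 15 turns with the scaling. Without Control replicate 3 the differences were 2.13 and 0.64.

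**Figure D2:**
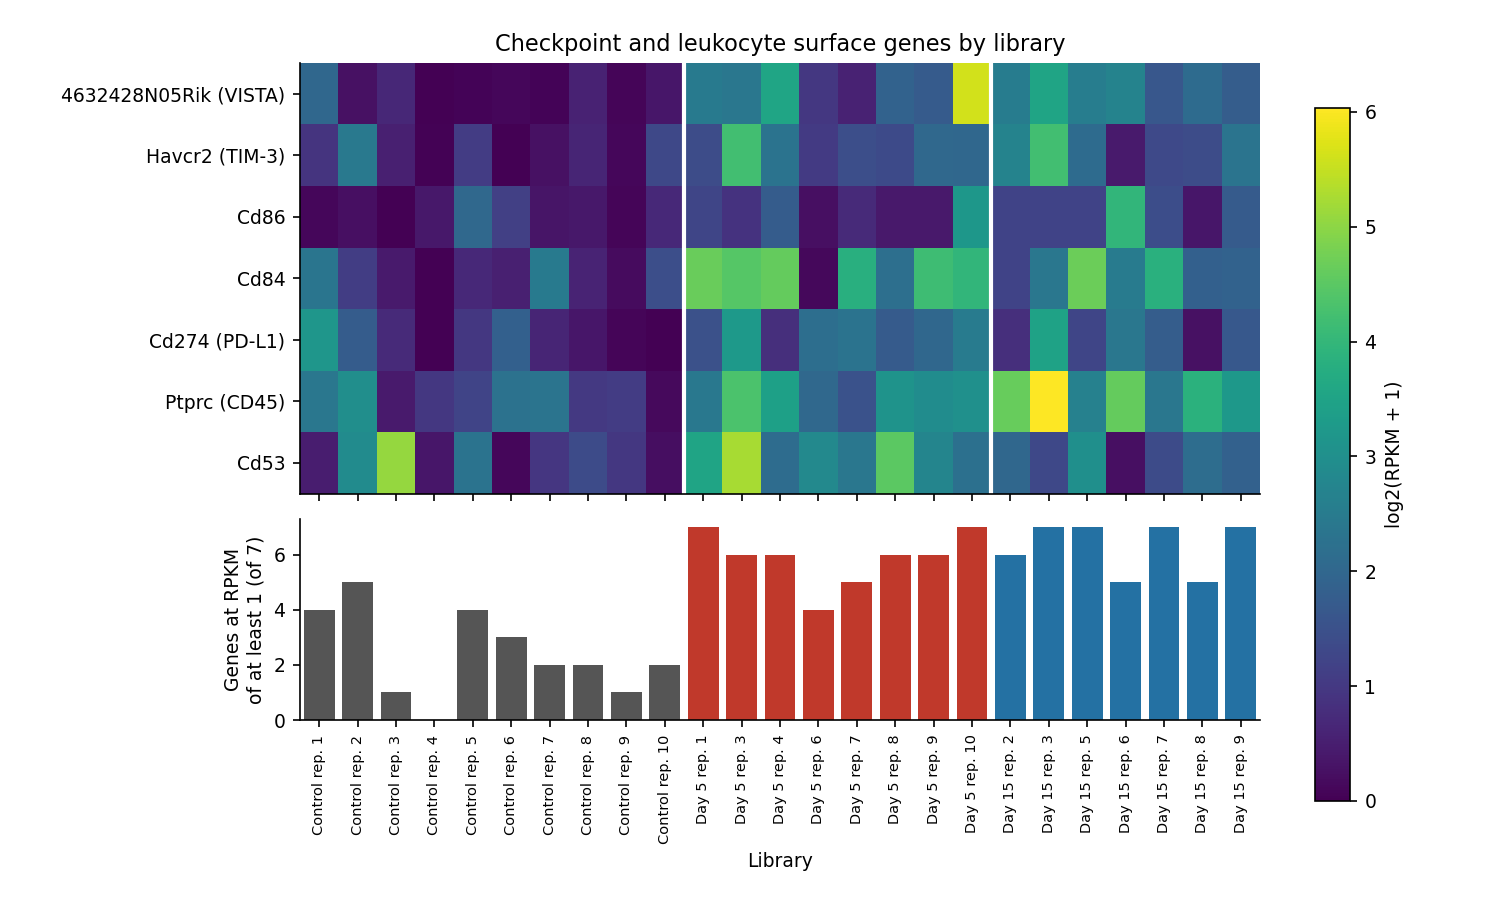
Heat map of log2(RPKM + 1) of the 7 members (vertical axis) in each of the 25 libraries (horizontal axis), brighter for higher levels, above bars of the number of members that reached 1 RPKM there. The bars reach at most 5 in controls and run from 4 to 7 at Day 5 and from 5 to 7 at Day 15.

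The member with the highest RPKM in a library was Ptprc in 4 controls, Cd53 in 3, Cd84 in 2 and Cd274 in 1. At Day 5 it was Cd84 in 4 libraries, Cd53 in 3 and 4632428N05Rik in 1, while at Day 15 it was Ptprc in 5 and Cd84 in 2. RPKM is scaled by transcript length, and on that basis the genes are set beside each other here. The RNA was amplified, and how evenly it was amplified between genes is unknown, so the orders describe RPKM values only. At Day 5 the medians ordered the genes as Cd84, Ptprc, Cd53, 4632428N05Rik, Cd274, Havcr2 and Cd86, with Cd84 above Ptprc in 6 of 8 libraries, Cd53 above 4632428N05Rik in 6 and Havcr2 above Cd86 in 7. In the other neighbouring pairs the gene with the higher median was also the higher in 3 to 5 of 8 libraries. At Day 15 the order was Ptprc, 4632428N05Rik, Cd84, Havcr2, Cd53, Cd274 and Cd86. Ptprc exceeded 4632428N05Rik in 7 of 7 libraries, whereas the other neighbours kept their order in 3 or 4 of 7. In controls the order was Ptprc, Cd53, Cd274, Cd84, Havcr2, Cd86 and 4632428N05Rik, and neighbours kept it in 5 to 8 of 10 libraries. VISTA thus had the lowest median in controls and the second-highest at Day 15.

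In a limma fit over all 4319 genes with Benjamini-Hochberg adjustment and a threshold of 0.05, 260 genes were called higher at Day 5 than in Control, 6.02% of those tested, and 1 gene (0.0232%) was called lower. In that fit 2 of the 7 members, Cd84 and 4632428N05Rik, lay past the threshold at Day 5, and 0 did under each of the 3 scalings. The members were chosen from the same values and 6 of them passed the filter through stroke libraries, so this count tests nothing and nothing is read from it. At Day 15, 4 of 4319 genes were called higher than in Control (0.0926%), and 0 of the 7 were among them. In 23 genes (0.533%) every Day 5 library lay above every control, and in 3 genes (0.0695%) every Day 15 library did. For each of the 7 members the controls overlapped both stroke groups.

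Set against Day 5, the Day 15 values of the members differed in sign. Ptprc was higher at Day 15 by 1.06 (SE 0.66) on the log2(RPKM + 1) scale, Cd86 by 0.48 (SE 0.50) and Havcr2 by 0.10 (SE 0.57). The 4632428N05Rik difference was 0.0019 (SE 0.60). Cd53 was lower at Day 15 (-1.48, SE 0.68), as were Cd84 (-0.88, SE 0.68) and Cd274 (-0.37, SE 0.57), where the median over all genes tested was -0.44. For Cd86, Havcr2, 4632428N05Rik and Cd274 the difference was smaller than its SE, so its sign is not settled. Under the 3 scalings the member differences moved: Ptprc was at 1.34 to 1.56, Cd86 at 0.65 to 0.79, Havcr2 at 0.32 to 0.53 and 4632428N05Rik at 0.28 to 0.46. Cd53 was at -1.17 to -0.86 and Cd84 at -0.59 to -0.36. Cd274 ran from -0.23 to 0.0010, so its direction turned with quantile normalization. In the limma fit 0 of 4319 genes were called between Day 15 and Day 5, and 633 had an unadjusted p under 0.05. The times share their control libraries, so their differences from Control are not independent of each other.

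The number of genes detected was also entered as a covariate. The Day 5 difference was then 1.61 for Cd84, 1.39 for 4632428N05Rik, 1.20 for Cd53, 0.73 for both Ptprc and Cd274, 0.37 for Havcr2 and 0.33 for Cd86, against a median of 0.07 over all genes tested. Each of these was smaller than the difference without the covariate, and Havcr2 moved the most in proportion, from 1.24. At Day 15 the values were 2.24 for Ptprc, 1.81 for 4632428N05Rik, 1.37 for Cd84, 1.09 for Havcr2, 0.97 for Cd86, 0.61 for Cd274 and 0.09 for Cd53.

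The replicate numbers in the library names were also split into 1 to 6 and 7 to 10. Controls 1 to 6 held 9588 to 14142 genes above 0 and controls 7 to 10 held 16013 to 17407, and the labels do not say what the numbers mean. At Day 5, numbers 1 to 6 and 7 to 10 gave differences from Control of 2.61 and 2.36 for Cd84 and of 1.82 and 2.18 for 4632428N05Rik. Ptprc was at 1.34 and 1.51, Havcr2 at 1.40 and 1.14, and Cd53 at 1.56 and 2.09. Cd274 was farther apart, at 0.52 and 1.88, and Cd86 was at 0.38 and 0.80, where the medians over all tested genes were 0.79 and 0.44. At Day 15, Ptprc was at 2.77 and 2.02 and 4632428N05Rik at 2.30 and 1.57. Cd53 differed in sign at Day 15, -0.22 in numbers 1 to 6 and 0.92 in 7 to 10.

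**Figure D3:**
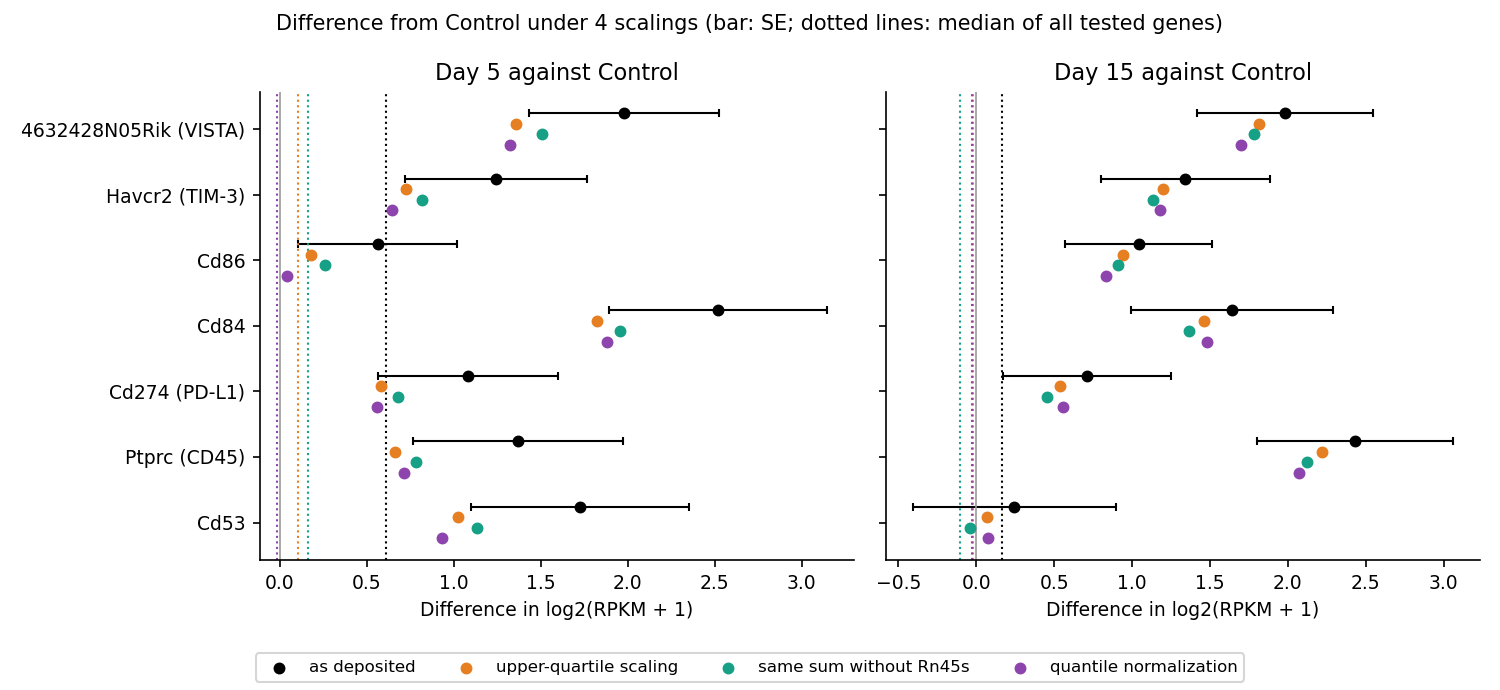
Difference from Control on the log2(RPKM + 1) scale for each member at Day 5 and Day 15, as deposited and under the 3 scalings, with bars of 1 SE for the deposited values and the median of all tested genes under each scaling as dotted lines. Every difference shown is above 0 except Cd53 at Day 15 with the common-sum scaling, at -0.04.

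Of the known partners of the members, most were near the floor of the table. PD-1 (Pdcd1) reached at most 0.717 RPKM in any library, CTLA-4 (Ctla4) 1.15, CD28 (Cd28) 0.660 and SAP (Sh2d1a), the adaptor of SLAM receptors, 0.079. Each failed the filter on low values. Of the other ligands, Cd80, the sister of CD86, reached at most 1.12, and Pdcd1lg2 (PD-L2) stayed at or under 0.363 in Control and Day 5 libraries, with 13.8 in 1 Day 15 library. Hmgb1 and Ceacam1, which bind TIM-3, and the SLAM adaptor Sh2d1b1 also failed the filter. Hmgb1 was not low in every library, with highest values of 1.88 RPKM in controls, 8.97 at Day 5 and 16.7 at Day 15. The receptors on the T cell side of PD-L1 and CD86 thus stayed at or under 1.15 RPKM in every library. Cd86 was itself low, reaching 1 RPKM in 3 of 8 Day 5 libraries and 2 of 10 controls. Depth is unknown, so no ligand without its receptor is read from these values.

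Galectin 9 (Lgals9), a TIM-3 ligand, had a mean RPKM of 1.48 ± 2.40 in controls (SD, n = 10), 4.31 ± 2.66 at Day 5 (SD, n = 8) and 15.4 ± 37.2 at Day 15 (SD, n = 7). One Day 15 library held 99.8, and the limma adjusted p at Day 5 was 0.172 for a difference of 1.31. The VISTA ligands Igsf11 and Selplg (PSGL-1) had Day 5 differences of 0.53 and 0.24, with limma adjusted p of 0.566 and 0.756. Cd47, the ligand of the inhibitory receptor SIRPA, had a difference of 1.14 and an adjusted p of 0.170.

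Beyond the members, 8 pathway lists held 169 genes of the table, of which 88 were tested. The lists were chosen with earlier results of these data known. Some listed genes, such as Syk, Runx1, Ifngr2, Ptpre and Tspan31, reached 1 RPKM in 0 controls and passed the filter only through stroke libraries. The shares and p-values of listed genes are therefore a description and do not test the lists. At Day 5, 19 of the 88 (21.6%, beside 6.02% of all genes tested) rose and 0 fell in the limma fit, with a median log2 difference of 1.00 against 0.61 for all genes tested. At Day 15 none of the 88 was called against Control or against Day 5. The Day 5 count depended on the scaling and on other settings. It was 0 of 88 with upper-quartile scaling and with quantile normalization. There 25 and 26 of the 88 had an unadjusted limma p under 0.05, beside 534 and 529 of all 4319 genes tested. With the common sum the count was 2 of 88, Cd300a and Sirpa (adjusted p = 0.0381 for each). With that covariate for detection it was 0 of 88 (median 0.32), with 16 at an unadjusted p under 0.05, beside 447 of all 4319. Without the filter it was 1 of 88 (Cd300a). Within numbers 1 to 6 and within 7 to 10, which hold fewer libraries, it was 0. There 25 and 50 of the 88 passed unadjusted, beside 830 and 793 of all 4319. Of the 19, 12 lost their call without at least 1 single library, and the count ran from 7 without Day 5 replicate 3 to 27 without Control replicate 5. The 7 that kept it in all 25 such fits were Cd300a, Ctss, Evi2b, Ifngr2, Itgb2, Sirpa and Tspan31.

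**Figure D4:**
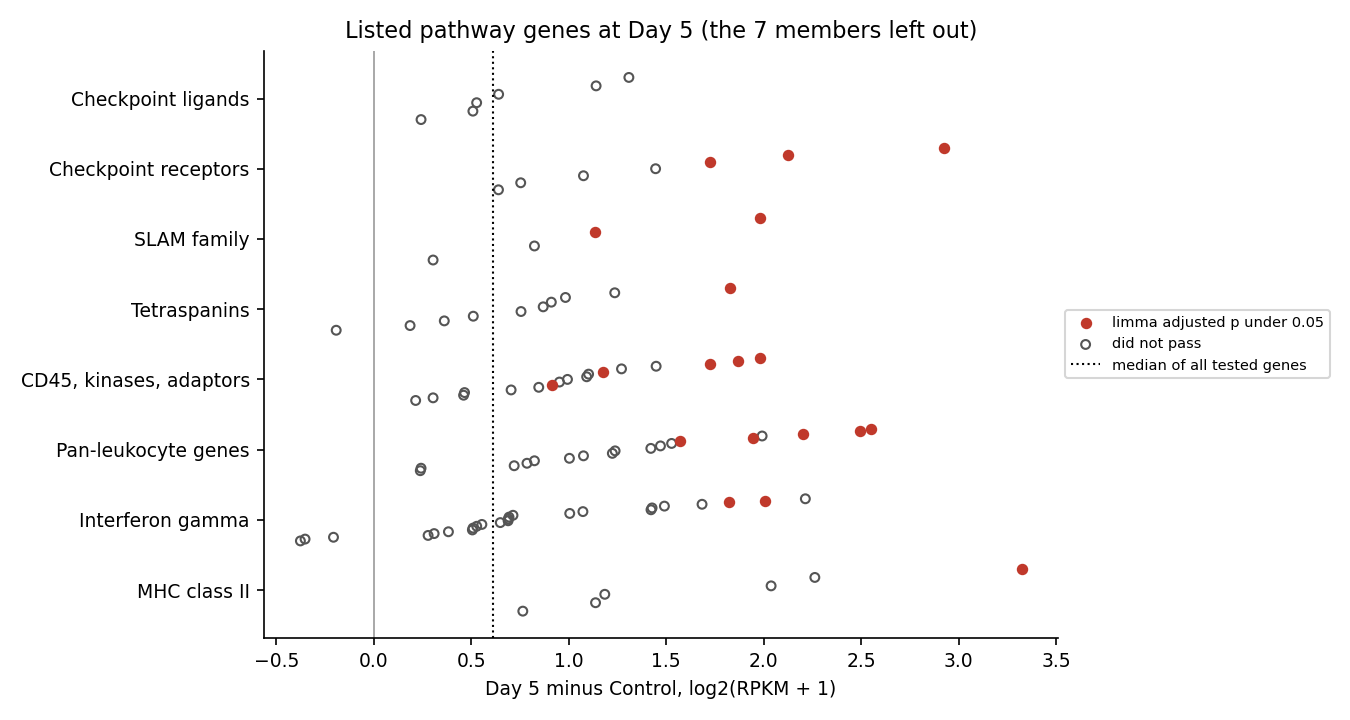
Day 5 difference from Control on the log2(RPKM + 1) scale for every tested gene of the 8 pathway lists, members left out, with genes called at a limma adjusted p under 0.05 filled and a dotted line at the median of all tested genes. The list medians, not drawn, run from 0.58 for checkpoint ligands to 1.61 for MHC class II genes, against 0.61 over all 4319 tested genes.

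Among the checkpoint and co-stimulatory receptors 3 of the 7 tested rose at Day 5, and the list's median was 1.45. Cd300a, an inhibitory receptor of myeloid cells, went from a median RPKM of 0.109 in controls to 2.75 at Day 5 (difference 2.12, SE 0.46, limma adjusted p = 0.00554). Sirpa, the myeloid receptor of CD47, went from 0.505 to 8.26 (2.92, SE 0.69, adjusted p = 0.0116). Lair1, an inhibitory receptor of collagens, went from 0.416 to 5.99 (1.72, SE 0.52, adjusted p = 0.0398). All 3 act as brakes on leukocytes. The Sirpa median was 10.1 at Day 15, and 1 Day 5 library held 665. Among the checkpoint ligands 0 of the 6 tested were called, with a median of 0.58. An unadjusted limma p under 0.05 was found for 2 of them, beside 1121 of all 4319 genes tested.

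In the SLAM list, the family of Cd84, 2 of the 4 tested genes rose at Day 5. Slamf7, a self-binding receptor of several leukocyte types, went from a median RPKM of 0.528 to 4.86 (1.98, SE 0.54, limma adjusted p = 0.0255), and at Day 15 its median was 0.884. Ly9, another member of the family, went from 0.0527 to 1.75 (1.13, SE 0.35, adjusted p = 0.0416). Slamf7 lost its call without Control replicate 9 or Day 5 replicate 3 (adjusted p of up to 0.0620), and Ly9 without any 1 of 14 libraries (up to 0.0715). In the tetraspanin list, the family of Cd53, 1 of 10 tested genes rose, Tspan31 (1.83, SE 0.47, adjusted p = 0.0170). The median of that list was 0.81, and its share of called genes is near the 6.02% of all genes.

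Of the phosphatases, kinases and adaptors that work with CD45, 5 of 17 tested rose at Day 5, with a median of 0.99. They were Lcp2 (SLP-76, an adaptor of antigen receptor signalling), Syk (a kinase of immune receptors), Skap2 (an adaptor of Src family kinases) and the phosphatases Ptpn6 and Ptpre. Ptpn6, which encodes SHP-1, is recruited by inhibitory receptors and had the smallest difference of the 5, 0.91 (SE 0.28, limma adjusted p = 0.0416). Skap2 had the largest, 1.98 (SE 0.57, adjusted p = 0.0312), with 130 RPKM in 1 Day 5 library. All 5 lost their call without at least 1 single library, with adjusted p of up to 0.0663 for Lcp2 and 0.101 for Ptpre.

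Of the other leukocyte surface and haematopoietic genes 5 of 18 tested rose at Day 5, with a median of 1.33. Itgb2, the beta chain of leukocyte integrins, went from a median RPKM of 0.573 to 8.05 (2.55, SE 0.62, limma adjusted p = 0.0130). Its partner chain Itgam (CD11b) went from 0.645 to 15.4 (2.50, SE 0.72, adjusted p = 0.0326), though 1 control held 101. Evi2b, a leukocyte membrane protein, went from 0.341 to 5.28 (1.94, SE 0.50, adjusted p = 0.0185). Lcp1 (plastin of leukocytes) and Runx1 (a transcription factor of blood cells) rose by 2.20 and 1.57.

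The interferon gamma list had 2 of 24 tested genes called (8.33%) and a median of 0.69, both near the 6.02% and 0.61 of all genes tested. They were Ifngr2, a chain of the interferon gamma receptor, at 2.01 (SE 0.50, limma adjusted p = 0.0140), and the transcription factor Irf8 at 1.82 (SE 0.56, adjusted p = 0.0427). Irf8 is also a lineage factor of microglia and macrophages. In the MHC class II list 1 of 6 tested genes rose, Ctss, the lysosomal protease of invariant chain processing. Its median RPKM went from 4.67 to 64.9 (3.32, SE 0.78, adjusted p = 0.0111). Of the 6 genes, 5 had an unadjusted limma p under 0.05, beside 1121 of all 4319 genes tested.

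Markers of myeloid cells were also higher after stroke than in controls. The marker lists were chosen with earlier results of these data known, so their sums are a description. The summed RPKM of 16 macrophage and monocyte markers ran from 5.06 to 135 in controls, from 189 to 2638 at Day 5 and from 51.3 to 610 at Day 15. The Day 5 sums did not overlap those of the controls. Among single genes 23 of 4319 (0.533%) were so separated, and no such share was made for sums. Nothing is read from the separation. The medians of this macrophage sum were 30.8, 1066 and 130. The sum of 17 microglia markers ran from 9.16 to 47.9, from 47.7 to 552 and from 46.2 to 511, with medians of 25.7, 85.8 and 224. The macrophage sum had its highest median at Day 5 and the microglia sum at Day 15. A few genes weigh heavily in the macrophage sum. Lyz2 had a mean of 485 RPKM at Day 5, and Spp1 had 289 at Day 5 and 25.0 at Day 15. An order of the 2 cell types in time was not tested and is not read from the sums. None of the listed macrophage or microglia markers was at 0 in every library of a group. Lyz2, the macrophage marker with the highest mean at Day 5 and Day 15, had medians of 4.56, 174 and 32.2 RPKM, and Ccr2, a defining monocyte receptor, had means of 0.700, 1.03 and 0.233. The part of such cells in the levels of the 7 members was not tested.

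Lymphocyte markers were low. The sum of 15 T cell markers had medians of 0.522, 1.55 and 1.93 RPKM in Control, Day 5 and Day 15, with highest sums of 3.11, 8.57 and 14.9. The T cell receptor chains Cd3e, Cd3d and Cd3g had group medians between 0 and 0.247. The B cell sum of 8 markers reached at most 8.24 and the NK cell sum of 8 at most 11.0. Of 9 neutrophil markers the sum ran from 0.0349 to 12.9, from 1.01 to 35.8 and from 0.914 to 139, mostly through Csf3r, with Camp at 0 in every control. Of 9 dendritic cell markers the sum ran from 0.132 to 3.96, from 0.0114 to 17.9 and from 1.50 to 68.9. Their part in the result was not tested either.

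The labelled cell type was checked against 10 markers of oligodendrocyte precursor cells, whose summed RPKM ran from 7.87 to 112 in controls, from 19.5 to 111 at Day 5 and from 14.8 to 283 at Day 15. Pdgfra, the defining receptor of these cells, had medians of 0.607, 4.71 and 0.643 RPKM, and Cspg4 (NG2) had 0.00536, 0.464 and 0.283. Both were therefore low in many libraries. Other markers of the list were higher. The highest mean was that of Sox10 in controls (11.6 RPKM), Ptprz1 at Day 5 (18.7) and Vcan at Day 15 (41.1). Markers of myelin and mature oligodendrocytes summed to 125 to 1282, 85.8 to 1172 and 41.4 to 547, above the sums of the precursor markers at the median of every group. Astrocyte sums ran from 16.6 to 351, 20.3 to 760 and 23.3 to 337, endothelial sums from 0.00794 to 10.3, 1.60 to 18.5 and 0.254 to 29.2, and neuronal sums from 1.73 to 20.0, 1.20 to 4.43 and 0.0679 to 76.5. Markers of several cell classes were thus present in the captured material, and no value here assigns a member to one of them.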

How the data were processed

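RNA of 25 laser-captured mouse brain samples was amplified with a Nugen Ovation kit and sequenced as paired ends, per the labels' protocols. The authors deposited 1 table of RPKM values; CASAVA 1.8.3, STAR 2.1.4a, HTSeq and build mm9 are named in the submitters' processing notes. It holds 1 column per library and no counts, so depth is unknown. Libraries were grouped by their labels into Control, Day 5 and Day 15.

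Values were taken as log2(RPKM + 1). Genes reaching an RPKM of 1 in 7 or more libraries were fitted with limma 3.58.1 in R 4.3.3 (all 25 libraries, 1 mean per group, intensity trend, robust variances, two-sided, Benjamini-Hochberg, threshold 0.05). The fit was tested on simulated data. The members and the pathway and marker lists were chosen with earlier results of these data known, so no p-value is given for the members, and their counts past the threshold are a description. Of the 23351 genes, 25 have symbols turned into dates by a spreadsheet and were kept unnamed.

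Named genes are the 7 members, their known partners, up to 5 called genes of each pathway list (or the 2 with the smallest Day 5 p where none was called), and the genes most like the members by Spearman correlation. Alternatives tried were leaving out the filter or asking for a mean of 5 RPKM, a pseudocount of 0.1, quantile, common-sum and upper-quartile scaling, covariates, number ranges, left-out libraries and a replicate block. Replicate numbers 1 to 6 against 7 to 10 and the counts of listed genes were added after seeing the data. Descriptions and promoter searches used Python 3.11.15.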

Additional observations from a re-analysis of the deposited data

Results flagged for a closer look

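In 21 groups of values (each member in each of the 3 groups), the highest and the lowest library were compared with their neighbours on the log2(RPKM + 1) scale. In 4 of them a single library stood further from the others than Dixon's 95% critical value allows. Chance gives about 1 in 20 groups only where values are normally distributed. Many values here lie near the floor with a few high ones, so the 4 are not set against that rate. Control replicate 1 held 3.02 RPKM of 4632428N05Rik, with a gap of 0.666 of the range of the controls against a limit of 0.466. Havcr2 stood apart in Control replicate 2, at 4.44 RPKM (gap 0.469, limit 0.466), and in Day 5 replicate 3, at 17.5 RPKM (gap 0.604, limit 0.526). Cd86 stood apart in Day 15 replicate 6, at 14.7 RPKM (gap 0.622, limit 0.568). Day 5 replicate 3 was also the Day 5 library with the most genes at an RPKM of at least 1, 6592.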

How the results depend on the processing

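Of 807 member differences recomputed over 39 alternatives, 801 stayed within 1 SD of the main fit and 6 moved (all with a pseudocount of 0.1). That SD is the spread between libraries within groups, which is wide. Leaving out a library of the third group cannot change a difference, so these counts do not measure robustness. A change of sign was scored only for differences called in the main fit, and 0 of those changed. Cd53 at Day 15 and Cd274 between the 2 times did change sign under a scaling, as given above. The count of genes called at Day 5, 261, was 553 with a pseudocount of 0.1, 24 without the filter, 119 with a mean RPKM of at least 5, 22 with upper-quartile scaling, 20 with quantile normalization, 36 with the common sum, 398 with the number range as covariate, 0 with the number of detected genes as covariate (447 at an unadjusted p under 0.05 in limma), and 4 and 4 within the number ranges. Leaving out 1 library gave 96 (without Day 5 replicate 3) to 418 (without Day 5 replicate 7). The 4 genes called at Day 15 were 38, 0 and 11 with that pseudocount, without the filter and with that mean, 9 with upper-quartile scaling, 1 with detected genes as covariate, 2 with the compared groups alone, 1 without the Rn45s-rich libraries, 0 and 0 within the ranges, and 0 to 6 with 1 library left out. Between Day 15 and Day 5 the count was 0 to 8 with 1 library left out, the 8 without Day 15 replicate 5. The 2 members called at Day 5 were 4 with that pseudocount, 0 without the filter, 1 with that mean, 0 under each of the 3 scalings and with detected genes as covariate, 1 without the Rn45s-rich libraries, 0 and 0 within the ranges, and 1 (without Day 5 replicate 10) to 3 (without Control replicate 3) with 1 library left out. The causes were not tested.

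Replicate numbers were shared between groups, but same-numbered libraries did not deviate together (20 pairs, correlations from -0.0573 to 0.0842). With a replicate block 499 genes, 3 members and 33 of the 88 listed genes were called at Day 5. Depth is unknown, so values near 0 carry no floor.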

Other observations

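Across the 25 libraries, the genes whose log2(RPKM + 1) followed the mean of the 7 members most closely were Abca1 (Spearman's rho 0.850), Adap2 (0.842), Creg1 (0.842), Man2b1 (0.840) and Spp1 (0.839). Abca1 encodes a cholesterol exporter, Man2b1 a lysosomal mannosidase and Spp1 the secreted protein osteopontin. Their Day 5 differences from Control on the log2(RPKM + 1) scale were 5.17 for Spp1, 3.16 for Man2b1, 2.74 for Abca1, 2.49 for Creg1 and 1.46 for Adap2. The genes were chosen for following members that were themselves chosen from these values, so the differences are given with no test. These correlations are a description over libraries that differ in group and in the number of genes detected.

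Each member had a nearest gene of its own. It was Ptprc for 4632428N05Rik (rho 0.768), Lrrc3 for Havcr2 (0.857), Chst11 for Cd86 (0.765), Man2b1 for Cd84 (0.824), Foxo3 for Cd274 (0.757), Olfml3 for Ptprc (0.797) and Gm5148 for Cd53 (0.846), over the same 25 libraries. Olfml3 is a gene used as a microglia marker.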
